A study of Mus musculus with 34 samples.

Results

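The transcripts of *Trp53*, the gene of the transcription factor p53, and of 6 genes that restrain or modify p53 were followed in mouse limb buds with and without *Hnrnpk*. The members were chosen by symbol as *Trp53*, *Mdm2*, *Mdm4*, *Ppm1d*, *Zmat3*, *Rchy1* and *Trp53bp1*, and these were 7 of the 22040 genes in the mRNA-seq table. Total RNA came from limb buds of E11.5 embryos, in 3 WT and 3 CKO libraries, of which replicates 1 to 3 were labelled in each group. The CKO embryos were *Prrx1-Cre;Hnrnpk fl/fl*, with *loxP* sites on both sides of an internal block of exons. The WT libraries were labelled Hnrnpk WT, and whether those embryos carried floxed alleles or *Prrx1-Cre* was not stated for these libraries. *Prrx1-Cre* acts in limb mesenchyme, so blood, vessel, muscle and surface cells of the limb bud keep *Hnrnpk*. The sources used here do not say how many embryos made up a library, so *p* values measure the spread between these libraries, which may in part be technical.

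p53 is held at a low level in unstressed cells because it switches on its own inhibitors. MDM2 is a ubiquitin ligase that sends p53 to the proteasome, and its relative MDM4 binds and blocks the activation domain of p53. PPM1D is a phosphatase that reverses stress-dependent phosphorylation of p53 and of its kinases. RCHY1, also called PIRH2, is a further ubiquitin ligase for p53. ZMAT3 is a zinc finger RNA-binding protein whose gene is a direct target of p53. TP53BP1, encoded by *Trp53bp1*, binds p53 and acts in the repair of DNA breaks. *Mdm2*, *Ppm1d*, *Zmat3* and *Rchy1* are known p53 targets, whereas p53 is regulated largely as a protein, which these RNA data do not measure.

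The DNA around each gene start was searched for the p53 consensus element, a pair of decamer half-sites that each hold a fixed C and a fixed G. The sequences are shown because feedback regulators of p53 are often its direct targets. Windows reached 5000 bases to either side of the start on GRCm38, and a p53-like site was a run of 20 bases with every fixed C and G and at most 2 mismatches elsewhere. No spacer between the half-sites was allowed, and the element reads alike on both strands, so 1 pass covered both. Of the windows of 12281 tested genes, 10.9% held such a site. *Zmat3* was the only one of the 7 members with one, and it had 2, as did 0.928% of all windows when counted as 2 or more. The sequences below are on the strand of the gene, with the fixed C and G in capitals.
*Zmat3*, 1673 bases after the start, 0 mismatches, chr3:32364331-32364350: aaaCaaGcccaggCatGtct
*Zmat3*, at -4147 bases from the start, 1 mismatch, chr3:32370151-32370170: gagCaaGtctgggCttGtta
*Mdm2*, 643 bases after the start, 3 mismatches, chr10:117710105-117710124: ggtCaaGttgggaCacGtcc
*Trp53*, at -66 bases from the start, 3 mismatches, chr11:69580284-69580303: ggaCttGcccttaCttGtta
*Mdm4*, 839 bases after the start, 3 mismatches, chr1:133029712-133029731: aggCttGcaccacCttGcct

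The first *Zmat3* sequence matched the consensus at every position and lies in bases annotated as exon of *Zmat3*, and the second lies between genes. A perfect match was found in 29 of the 12281 windows, which is 0.236%. The *Mdm2* sequence is in bases annotated as exon of *Mdm2*, a gene known to have an internal p53-responsive promoter. The *Trp53* sequence lies between genes, and the *Mdm4* sequence is in an intron of *Mdm4*. Both windows held further sequences with 3 mismatches, in an intron of *Wrap53* for *Trp53* and in an intron of *Mdm4* for *Mdm4*. The sequence nearest the start is the one shown. As many as 42.1% of windows held a sequence with 3 mismatches or fewer, so matches as close as those at *Mdm2*, *Trp53* and *Mdm4* were common. This count of mismatches does not tell whether p53 acts through any of these sequences, at *Mdm2* or elsewhere. The closest sequences at *Ppm1d* and *Trp53bp1* had 4 mismatches and that at *Rchy1* had 5. A match is a description of letters, and its absence says only that these letters are not in the window.

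**Figure D1:**
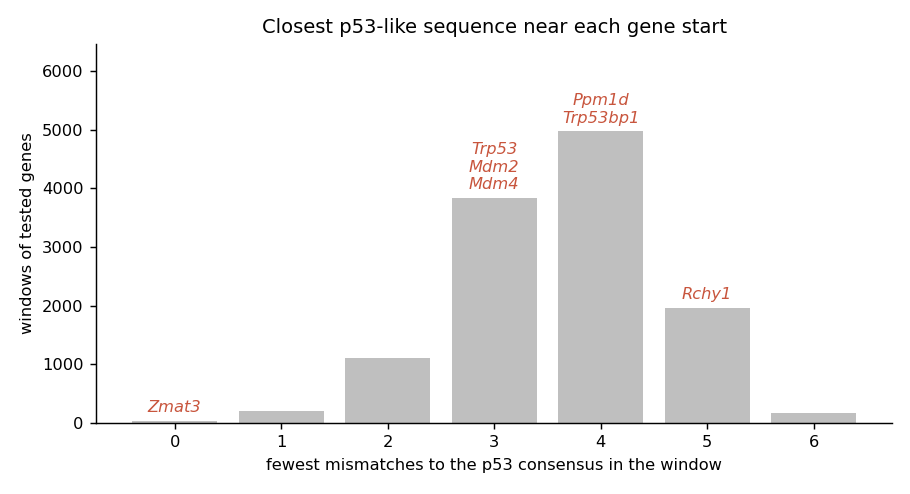
Number of tested genes (y axis) by the fewest mismatches to the p53 consensus in the window around the gene start (x axis), with the 7 genes named above their bars. *Zmat3* is among the 29 windows with 0 mismatches, *Trp53*, *Mdm2* and *Mdm4* are at 3, *Ppm1d* and *Trp53bp1* at 4 and *Rchy1* at 5.

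The reads on listed genes numbered 17140853 to 24624405 per library, and each member had at least 489 reads in every library. All 7 members passed the low-value filter, a mean of 0.5 FPKM or more across libraries, as did 12305 genes in all. FPKM are fragments per unit of exon length and of library size, where the length is that of all annotated exons of a gene. Annotated exons that few transcripts use lower the FPKM of a gene, so levels are compared between genes only within this limit. *Hnrnpk*, the targeted gene, was at 193, 195 and 185 FPKM in WT and at 127, 142 and 135 in CKO replicates 1 to 3. Its CKO values were all below its WT values, with a log2 fold change of -0.50 ± 0.127 (SE), but this did not pass limma's test over all genes (adjusted *p* = 0.334, or 0.0575 with the replicate number as a block). The count covers the whole gene, and 330 of its exon bases overlap *Rmi1* on the opposite strand. In a principal component analysis, replicate 1 of both groups stood apart from the other libraries on the first component (52.6% of the variance), and the second (26%) separated CKO from WT. Markers of limb mesenchyme summed to 304 to 316 FPKM in WT and to 262 to 291 in CKO, and 7 of the 8 were lower in CKO, none past the threshold. The 12 erythroid markers summed to 38000 to 64300 FPKM in WT and to 31000 to 143000 in CKO, and all 12 had fold changes above 0. All 8 endothelial markers were lower in CKO, at 26.4 to 36.0 FPKM in WT and 18.3 to 28.4 in CKO in sum, and the macrophage markers summed to 21.0 to 33.3 and to 21.3 to 47.0. The muscle markers summed to 13.2 to 52.8 FPKM in WT and to 33.4 to 72.6 in CKO, the ectoderm markers to 39.0 to 75.1 and 44.0 to 77.0, and the neural markers to 7.24 to 12.9 and 9.51 to 11.6. Fold changes were above 0 for 7 of 8 macrophage, all 6 tested muscle, 7 of 8 ectoderm and 3 of 4 tested neural markers. None of the markers of these cell types passed the adjusted threshold in limma without the block, and 1 muscle marker did with it. The part of these cell types in the results for the members was not tested, apart from the rescaling without erythroid markers given for *Zmat3*. In such bulk samples, fewer cells of a type and less RNA per cell cannot be told apart.

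*Zmat3* was the one member that rose in CKO limb buds. Its level was 2.74, 2.55 and 2.85 FPKM in WT replicates 1 to 3 and 8.66, 6.90 and 8.04 FPKM in CKO replicates 1 to 3. Every CKO library was above every WT library, and the gap between the groups was wider than the range within either group. The mean went from 2.71 ± 0.154 to 7.87 ± 0.891 FPKM (SD, n = 3 each), a ratio of 2.90. On the log2(FPKM + 0.1) scale the fold change was 1.5 ± 0.133 (SE), with a 95% interval of 1.19 to 1.81, and limma gave an adjusted *p* of 0.0101. With the replicate number as a block the adjusted *p* was 3.36e-05. *Zmat3* ranked 5 by *p* among all tested genes, and 0.0569% of those genes were called higher in CKO (7 genes), or 1.13% with the block (139 genes). The exact permutation test gave *p* = 0.1, the smallest that 3 against 3 libraries allow. The reads behind these values were 565, 697 and 711 in WT and 1792, 1511 and 2192 in CKO.

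The size of the *Zmat3* difference moved little between settings, from 1.25 to 1.59 on the log2 scale, but its call did not hold in all of them. The adjusted *p* was 0.135 when the libraries were rescaled without the erythroid markers, with a fold change of 1.39 ± 0.203 (SE) on the log2 scale. The SE was 0.133 in the main fit. The median of all tested genes was -0.099 after the rescaling and 0.00479 in the main fit. Without WT replicate 2 or 3, or CKO replicate 2 or 3, it was 0.0886, 0.117, 0.052 and 0.145. *Zmat3* was 1.43 ± 0.14 (SE) higher on the log2 scale in replicates 2 and 3 alone, so the difference was present without the libraries that stood apart. The adjusted *p* of limma there was 4.63e-09, in a fit with 2 libraries a group that called 1851 genes. Its SE was not below the 0.133 of the main fit, so the smaller *p* does not reflect a more precise estimate.

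*Trp53* itself had the highest FPKM of the members. It was at 50.3, 38.8 and 37.4 FPKM in WT and at 57.5, 46.1 and 51.4 FPKM in CKO. The groups overlapped, since WT replicate 1 was above CKO replicate 2, but each CKO library was above the WT library of the same number. The means were 42.2 ± 7.06 and 51.7 ± 5.69 FPKM, a ratio of 1.23, and the log2 fold change of 0.30 ± 0.156 (SE) was not past the threshold (limma, adjusted *p* = 0.681). The 95% interval was a ratio of 0.957 to 1.58, or 1.04 to 1.45 with the block, where the unadjusted *p* was 0.0175 and the adjusted *p* 0.169. The same-numbered differences were 0.193, 0.246 and 0.46 on the log2 scale, but the labels do not say that equal numbers mark pairs. In replicates 2 and 3 alone, where 1851 genes were called, the log2 fold change was 0.353 (limma, adjusted *p* = 0.0628).

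**Figure D2:**
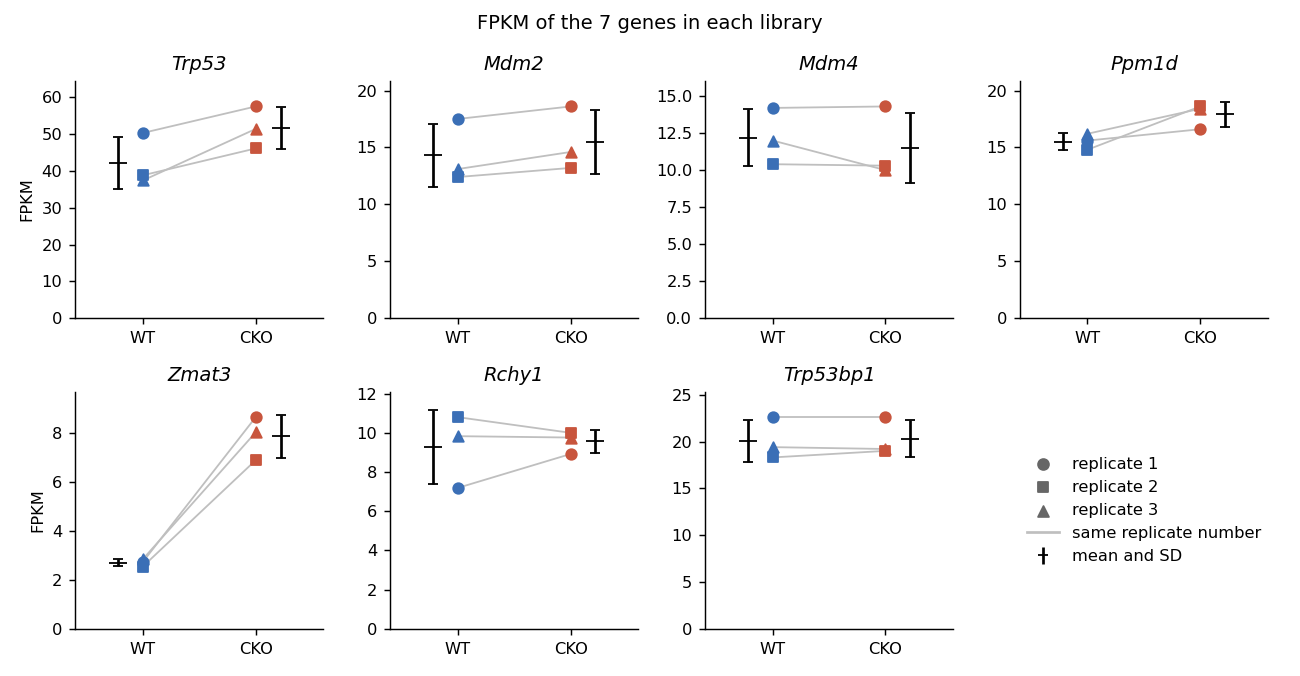
FPKM (y axis, from 0, scaled for each gene) of the 7 genes in the 3 WT and 3 CKO libraries. Symbols give the replicate number, grey lines join equal numbers, and bars are the mean and SD. *Zmat3* is separated between the groups by the widest margin, and *Trp53*, *Mdm2*, *Mdm4* and *Trp53bp1* are highest in replicate 1 of both groups.

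Of the inhibitors that bind p53 directly, neither *Mdm2* nor *Mdm4* passed the test. *Mdm2* was at 17.5, 12.4 and 13.1 FPKM in WT and at 18.6, 13.2 and 14.6 FPKM in CKO. The CKO value was the higher one in each same-numbered pair, by 0.0912, 0.0949 and 0.158 on the log2 scale, but the groups overlapped over most of their range. The means were 14.3 ± 2.75 and 15.5 ± 2.79 FPKM (SD, n = 3 each), with a log2 fold change of 0.1146 ± 0.181 (SE) and limma's adjusted *p* at 0.908. The 95% interval of the *Mdm2* ratio ran from 0.809 to 1.45, and with the replicate block from 0.93 to 1.26, so the upper bound in either fit was below the lower bound for *Zmat3*, 2.28 and 2.36.

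*Mdm4* was at 14.2, 10.4 and 12.0 FPKM in WT and at 14.3, 10.3 and 10 FPKM in CKO. It was nearly level between the groups in replicates 1 and 2 and lower in CKO replicate 3. It was the one member with a fold change below 0, -0.09 ± 0.18 (SE) on the log2 scale, and the adjusted *p* of limma was 0.925. The means were 12.2 ± 1.91 and 11.5 ± 2.38 FPKM. Replicate 1 was high for both genes in both groups, and leaving out 1 of these libraries turned the sign, to -0.0245 for *Mdm2* without CKO replicate 1 and to 0.0224 for *Mdm4* without WT replicate 1. In replicates 2 and 3 alone the log2 fold changes kept their signs, at 0.126 for *Mdm2* and -0.14 for *Mdm4*.

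*Ppm1d*, the phosphatase gene, was at 15.6, 14.8 and 16.2 FPKM in WT and at 16.6, 18.6 and 18.4 FPKM in CKO. All 3 CKO values were above the WT values, but by a small margin. The means were 15.5 ± 0.724 and 17.9 ± 1.09 FPKM, a ratio of 1.15, and the log2 fold change was 0.20 ± 0.11 (SE), with limma's adjusted *p* at 0.698 and at 0.325 with the block. The exact permutation test gave *p* = 0.1, its smallest possible value. The 95% interval of the ratio was 0.963 to 1.37.

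*Rchy1*, the second ligase gene, was at 7.19, 10.8 and 9.83 FPKM in WT and at 8.92, 10 and 9.76 FPKM in CKO. The CKO values lay within the range of the WT values. The means were 9.28 ± 1.88 and 9.56 ± 0.571 FPKM, with a log2 fold change of 0.06 ± 0.166 (SE) and an adjusted *p* of 0.948 in limma. *Trp53bp1* was at 22.6, 18.3 and 19.4 FPKM in WT and at 22.6, 19 and 19.2 FPKM in CKO, with means of 20.1 ± 2.24 and 20.3 ± 2.0. Its log2 fold change was 0.02 ± 0.132 (SE), limma's adjusted *p* was 0.985, and the 95% interval of the ratio was 0.817 to 1.25. Both genes share exon bases with a gene on the opposite strand, *Rchy1* 680 bases with *Thap6* and *Trp53bp1* 2130 bases with *Tubgcp4*, and the library kit was stranded but the strand setting of the counting was not given in the sources used here.

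**Figure D3:**
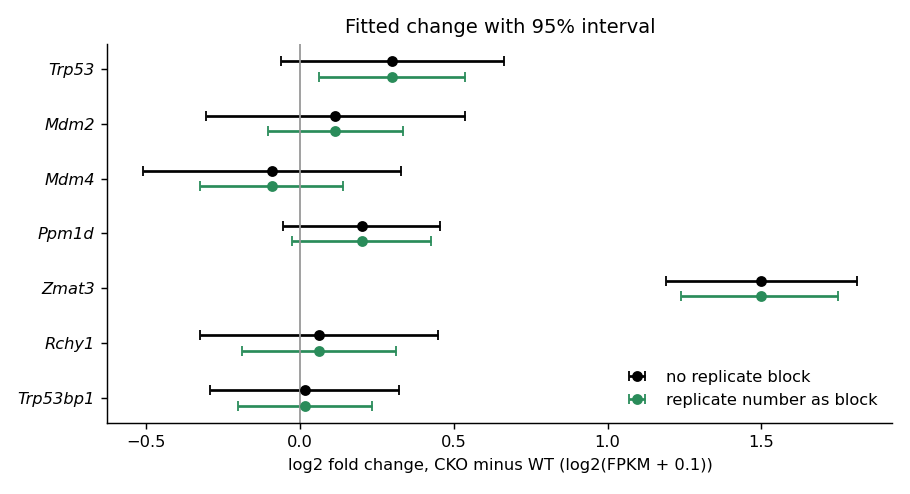
Log2 fold change between CKO and WT (x axis) for each of the 7 genes (y axis), as points with 95% intervals, without the replicate block in black and with it in green. The *Zmat3* interval of 1.19 to 1.81 lies above those of the other 6 genes, and the *Trp53* interval is above 0 with the block, from 0.0621 to 0.537.

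Counted over the members, 1 of 7 passed the adjusted threshold, *Zmat3*, in the fit with and without the replicate block. At an unadjusted *p* under 0.05, 1 member passed, beside 8.31% of all tested genes, and with the block 2 members did, *Trp53* and *Zmat3*, beside 18.4%. The CKO values were all above the WT values for 2 members, *Ppm1d* and *Zmat3*, where 5.63% of all genes had this pattern. *Trp53*, *Mdm2*, *Ppm1d* and *Zmat3* were higher in CKO in all 3 same-numbered pairs, a pattern of 18.2% of all genes, and no member was lower in all 3. The median log2 fold change of the members was 0.115, and that of all tested genes was 0.00479. After rescaling without the erythroid markers the median of all genes was -0.099, and the log2 fold changes were 0.194 for *Trp53*, 0.00925 for *Mdm2*, -0.197 for *Mdm4*, 0.0951 for *Ppm1d*, -0.0433 for *Rchy1* and -0.0899 for *Trp53bp1*. The members moved down together with the median, and none was called on this scale.

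The order of FPKM in WT was *Trp53*, *Trp53bp1*, *Ppm1d*, *Mdm2*, *Mdm4*, *Rchy1* and *Zmat3*, and the same order held for the CKO means. This order depends on the merged exon length, which was 14798 bases for *Mdm4* and 3173 for *Ppm1d*. In WT replicate 1, *Mdm4* had 3790 reads and *Ppm1d* 894. The mean of *Trp53* was 2.1 times that of *Trp53bp1* in WT and 2.55 times in CKO. *Ppm1d* and *Mdm2*, and *Mdm2* and *Mdm4*, overlapped in both groups, and *Mdm4* and *Rchy1* overlapped in WT. *Zmat3* was the lowest member in both groups, but *Rchy1* was 3.42 times as high in WT and 1.22 times in CKO. Replicate 1 was above the mean of replicates 2 and 3 by a ratio of 1.37 in WT and 1.34 in CKO for *Mdm2*, 1.27 and 1.41 for *Mdm4*, and 1.32 and 1.18 for *Trp53*. For *Zmat3* this ratio was 1.02 in WT and 1.16 in CKO, and for *Rchy1* it was 0.696 and 0.902. The spread among replicates of *Mdm2* and *Mdm4* was thus mostly that of replicate 1 in both groups, and what sets this replicate apart was not tested.

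A ratio of 2 genes within a library does not depend on the scaling between libraries. The log2 ratio of *Zmat3* to *Trp53* was -4.15, -3.88 and -3.67 in WT and -2.72, -2.72 and -2.66 in CKO. The groups did not overlap, the difference was 1.20, and the ratio to *Trp53* was separated upward in 0.528% of the other tested genes. The log2 ratio of *Mdm2* to *Trp53* was -1.52, -1.64 and -1.51 in WT and -1.62, -1.79 and -1.81 in CKO. It was lower in CKO in each same-numbered pair, with a difference of -0.185 and overlapping groups (exact permutation test, *p* = 0.2). *Mdm4* and *Trp53bp1* had their 3 CKO ratios all below their 3 WT ratios, with differences of -0.391 and -0.284 on the log2 scale. The same pattern was found in 28.2% of the other genes, so it was common to many genes. The differences for *Ppm1d* and *Rchy1* were -0.0989 and -0.238, and both overlapped (exact permutation test, *p* = 0.6 each).

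**Figure D4:**
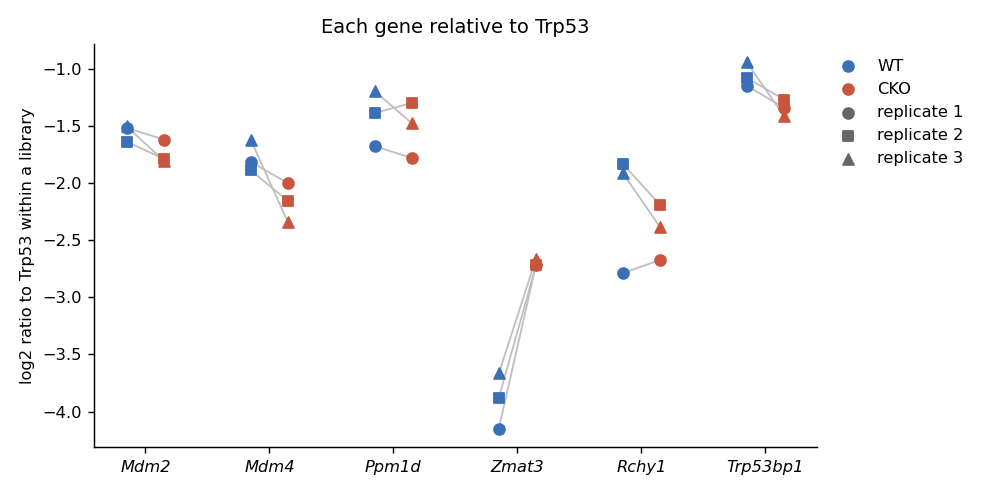
Log2 ratio of 6 genes to *Trp53* within a library (y axis), with WT in blue, CKO in red, symbols for the replicate number and grey lines joining equal numbers. *Zmat3* moves from between -4.15 and -3.67 in WT to between -2.72 and -2.66 in CKO, while *Mdm4* and *Trp53bp1* are slightly lower in CKO.

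A further pair of ratios was chosen after the values had been seen. The log2 ratio of *Zmat3* to *Mdm2* averaged -2.34 ± 0.25 for WT and -0.96 ± 0.123 for CKO libraries (SD, n = 3 per group). The difference was 1.53, 1.31 and 1.31 in the same-numbered pairs. The log2 ratio of *Mdm2* to *Mdm4* was 0.222 ± 0.0921 in WT and 0.428 ± 0.0942 in CKO. No test is given for either ratio, since both were picked from the values.

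The other genes of the pathway were grouped from textbook knowledge by their role around p53, with earlier results of these data known. Among 8 further genes that p53 switches on and that act back on it or its partners, 1 rose without the block and 2 with it. The shares of all tested genes called higher were 0.0569% and 1.13%. *Ccng1*, encoding cyclin G1, which recruits a phosphatase to MDM2, was at 9.78, 10.8 and 11.8 FPKM in WT and at 37.3, 77.9 and 60.1 FPKM in CKO. Its CKO values were all above its WT values, with a log2 fold change of 2.36 ± 0.252 (SE, limma adjusted *p* = 0.0274). *Trp53inp1*, whose product promotes p53 phosphorylation, had means of 7.94 ± 2.63 and 13.4 ± 3.65 FPKM and passed only with the block (limma, adjusted *p* = 0.552 without it and 0.00785 with it). The remaining 6 were not past the threshold, and the median of the list was 0.102.

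No listed upstream regulator of p53 passed the adjusted threshold. None of 12 ligases and deubiquitinases passed limma's adjusted threshold with or without the block, and 0 had an unadjusted *p* under 0.05 in either fit (median log2 fold change 0.0859). Of 20 kinases, acetylases, deacetylases and methylases that modify p53 or MDM2, none passed the adjusted threshold in either limma fit. Without the block, 1 had an unadjusted *p* under 0.05 in limma, the kinase gene *Atr*, with means of 2.88 ± 0.511 FPKM in WT and 2.02 ± 0.38 in CKO. With the block, 3 did, as the kinase genes *Hipk2* (11.1 ± 7.4 and 14.2 ± 6.6 FPKM) and *Atm* (4.79 ± 1.87 and 6.12 ± 1.54 FPKM) were higher in CKO and *Atr* lower. All 7 tested inhibitors of MDM2, mostly ribosomal proteins, had fold changes above 0 with a median of 0.283, and none passed limma's adjusted threshold in either fit. At an unadjusted *p* under 0.05, 0 of them passed without the block and 3 with it, *Rpl37*, *Gnl3* and *Npm1*, all higher in CKO. Over all tested genes, 8.31% and 18.4% had such a *p*. The rise was not uniform over libraries. In replicate 1, *Rpl5* (217 FPKM in CKO, 233 in WT), *Rps7* (210 and 230), *Rpl11* (174 and 186) and *Rpl23* (210 and 213) were lower in CKO. *Rpl37* was level there at 143, and *Npm1* and *Gnl3* were higher in CKO. Of the listed MDM2 inhibitors, *Cdkn2a*, whose ARF product blocks MDM2, was at a mean of 0.0293 FPKM and was not tested. None of 10 family members and cofactors passed the adjusted threshold in limma, and 1, *Ncl*, had an unadjusted *p* under 0.05 in either fit, higher in CKO.

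Among 28 tested genes that p53 switches on outside the feedback loop, 4 rose without the block, and with it 15 rose and 1 fell. Over all 12305 tested genes, 0.0569% were called higher without the block and 1.13% with it, and 207 genes were called lower with it. The median log2 fold change of this list was 0.448. *Eda2r*, a receptor of the TNF receptor family, had means of 0.246 ± 0.0688 and 5.94 ± 1.25 FPKM and a log2 fold change of 4.12 ± 0.226 (SE, limma adjusted *p* = 0.00165). *Cdkn1a*, the cyclin-dependent kinase inhibitor p21, went from 5.54 ± 1.08 to 25.4 ± 3.51 FPKM (limma, adjusted *p* = 0.0101). *Phlda3*, an inhibitor of AKT signalling, went from 4.41 ± 0.723 to 18.3 ± 2.83 FPKM (limma, adjusted *p* = 0.0101), and *Sesn2*, a stress-induced regulator of mTORC1, from 3.55 ± 0.214 to 9.86 ± 0.983 FPKM (limma, adjusted *p* = 0.0101). With the block, *Aen*, *Tnfrsf10b*, *Ak1* and *Bbc3*, the PUMA gene, also rose, by 1.3, 1.05, 0.78 and 0.75 on the log2 scale. *Sulf2*, which codes for a heparan sulfatase, fell by 0.74 on the log2 scale with the block. *Fas* and *Dram1* were not tested, at means of 0.252 and 0.258 FPKM.

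p53-like sites were found in 11 of the 28 windows of these targets (39.3%) and in 3 of the 8 windows of the other feedback genes (37.5%), beside the 10.9% of all windows. The window of *Ccng1*, which rose, held one of the latter. None of these windows held a perfect match, as *Zmat3* did.

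**Figure D5:**
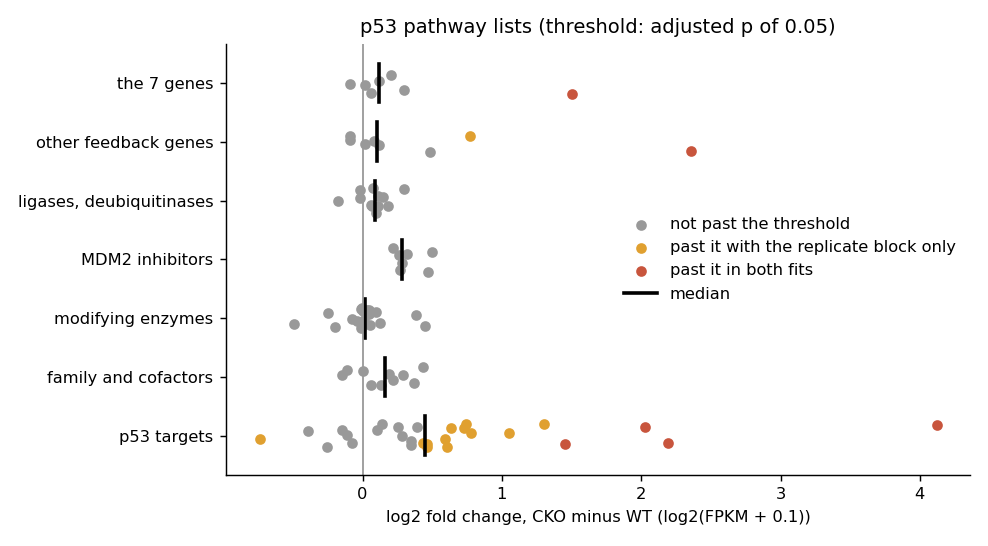
Log2 fold change between CKO and WT (x axis) of the tested genes of 7 lists (y axis), 1 point per gene, with the list's median as a black bar. Red points passed an adjusted *p* of 0.05 in both fits and yellow points only with the replicate block, and these lie in the p53 target list, the other feedback genes and, among the 7 members, at *Zmat3*.

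The genes most like 3 members were found by the smallest root mean square difference over the 6 libraries of the log2 values, each centred on its own mean. *Zmat3* was closest to *Sesn2* (0.0801), *Aen* (0.188) and *Fam212b* (0.212), of which the first 2 are p53 targets of the list above. *Sesn2* had WT values of 3.78, 3.50 and 3.36 FPKM and CKO values of 10.9, 8.91 and 9.79 FPKM. *Trp53* was closest to *Mybbp1a* (0.0324), *Pdcd11* (0.039) and *Mtrr* (0.0433). *Mybbp1a* was at 60.1, 44.6 and 44.6 FPKM in WT and at 67.5, 51.7 and 59.3 FPKM in CKO, so it had the same high replicate 1 as *Trp53*. *Mdm2* was closest to *Dnmt1* (0.0243), *Eif4g1* (0.0325) and *Fam53b* (0.0371), none of which passed limma's adjusted threshold. *Dnmt1*, the maintenance DNA methyltransferase, was at 65.6, 48.3 and 51.0 FPKM in WT and at 72.3, 49.7 and 55.4 FPKM in CKO.

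On GRCm38 the members lie on 6 chromosomes. *Trp53* is at chr11:69580359-69591873 on the plus strand and *Ppm1d* at chr11:85311244-85347066 on the plus strand. *Zmat3* is at chr3:32334792-32366014, *Mdm2* at chr10:117688875-117710758, *Mdm4* at chr1:132959484-133030561, *Rchy1* at chr5:91948904-91963068 and *Trp53bp1* at chr2:121193281-121271407, all on the minus strand. Each FPKM covers all annotated exons of the gene, so it does not tell apart the transcripts of a gene with more than 1 promoter, such as *Mdm2*.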

How the data were processed

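The authors deposited FPKM for 22040 genes, 1 column per library, and these were used as deposited. Their processing notes name cutadapt (version 2.5), HISAT2 (version 2.1.0), featureCounts (version 1.6.3) and mm10, while the annotation was not given in the sources used here. FPKM times the merged exon length of GENCODE vM21 gave whole reads, within 0.1 reads, in all 6 libraries for 92.5% of the 21933 genes found. The reads were 0.947 to 1.11 times the library size that the FPKM imply, so the values carry a scaling between libraries. Genes averaging 0.5 FPKM or more were compared as log2(FPKM + 0.1) with limma (version 3.58.1 in R 4.3.3, trend, Benjamini-Hochberg adjustment over 12305 genes, threshold 0.05). Same-numbered WT and CKO libraries deviated together from their group means (correlations 0.6356, 0.443 and 0.2664). The numbers were taken to pair libraries as a working choice. This comes from the data and not from the labels. WT replicate 2 correlated more with CKO replicate 3 (0.4949), and WT replicate 3 more with CKO replicate 2 (0.3075). Deviations within a group sum to 0, so a replicate 1 that stands apart in both groups by itself raises the correlations among replicates 2 and 3. The correlations thus set replicate 1 apart in both groups but do not settle how replicates 2 and 3 pair. A fit with the number as a block was an alternative, as were other pseudocounts, filters, scalings, voom on the recovered reads, replicates 2 and 3 alone and each library left out. Exact permutation tests were two-sided. The members and lists were chosen with earlier results of these data known. Named genes are the 7 members, *Hnrnpk*, up to 8 genes per list past the threshold in either fit, and the 3 genes most like *Trp53*, *Mdm2* and *Zmat3*. *Sulf2*, the one target that fell, and genes named for being untested, overlapping or past an unadjusted *p* alone were added after their values were seen. The same holds for the ribosomal protein genes whose replicate 1 values are given. The chromatin libraries of the study were not used here.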

Additional observations from a re-analysis of the deposited data

How the results depend on the processing

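The number of genes called in limma was 8, and it was 14 with quantile normalization, 4 after rescaling without erythroid markers, 346 with the replicate block, 651 with voom on recovered reads and the block, 1851 in replicates 2 and 3 alone, and 1 to 23 with 1 library left out. An ordinary linear model called 0, with 1108 genes at an unadjusted *p* under 0.05 (1022 in limma). Genes past a 2-fold change at an unadjusted *p* under 0.05 numbered 82, and 38 and 15 with pseudocounts of 0.5 and 1, 162 without a filter, 47 at a mean FPKM of at least 1, 126 with voom and the block, 184 in replicates 2 and 3 alone, and 73 to 168 with 1 library left out. The 1 member called, *Zmat3*, was lost (0 members called) after rescaling without erythroid markers, where its log2 fold change was 1.39 and the median of all genes was -0.099, in the ordinary linear model, where it was 1.5 (adjusted *p* = 0.161), and in 4 of the 6 fits that left out 1 library, so that 0 to 1 members were called and *Zmat3* was at 1.43 to 1.59. With the replicate block no other member's call changed. With 1 library left out, *Mdm2* ran from -0.0245 to 0.265, *Mdm4* from -0.254 to 0.0224, *Rchy1* from -0.11 to 0.182 and *Trp53bp1* from -0.064 to 0.103. *Rchy1* was at -0.0609 in replicates 2 and 3 alone and *Trp53bp1* at -0.021 with quantile normalization. Rescaling without erythroid markers lowered every member along with the median of all genes, which took *Rchy1* to -0.0433 and *Trp53bp1* to -0.0899. Fits without 1 library leave 2 in a group and fewer degrees of freedom. The other causes were not tested. The precision with 3 libraries a group is that of the 95% intervals given for the members.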
